A study of Bos taurus with 8 samples.

Results

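The miR-34 and miR-449 family comprises the bovine miRNAs bta-miR-34a, bta-miR-34b, bta-miR-34c and bta-miR-449a, which were taken by name from the table of raw miRNA reads as 4 of the 704 names listed (565 bovine, 139 human homologues). Reads were obtained from blood plasma and blood cells of 4 healthy, non-pregnant Holstein-Friesian cross cows aged 20 to 25 months, called heifers in the labels, that were sampled during a normal oestrous cycle with no treatment. Each cow, numbered 44 to 47, gave 1 plasma library, from 0.7 mL of plasma cleared by centrifugation and 0.2 μm filtration, and 1 blood cell library, from a pellet of red blood cells and buffy coat made up to 250 μL. Values are given as reads and as RPMM, the reads of a name per 1000000 bovine miRNA reads mapped in its library.

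Mature miRNAs guide Argonaute proteins to messenger RNAs through a short stretch near their start, the seed, and the miR-34 and miR-449 miRNAs form a family because they share this seed. In human and mouse cells transcription of the miR-34 genes is activated by the tumour suppressor p53, and the miRNAs repress cell cycle and survival genes. In the mouse, miR-34a is made in many tissues, whereas miR-34b and miR-34c, which are cut from a common primary transcript, and the miR-449 cluster are known from tissues with motile cilia, such as airway, oviduct and brain ventricle lining, and from testis, and they act redundantly in making multiciliated cells.

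The members came from 3 places in the bovine genome, which the authors' table gives in the build bosTau4 on the plus strand. miR-34a was located at chr16:41392757-41392778. miR-34b was at chr15:20035934-20035955 and miR-34c at chr15:20036634-20036655, so that their starts lay 700 bp apart. miR-449a was at chr20:25597480-25597501, near miR-449b, whose start lay 121 bp away, and miR-449c, whose start lay 1624 bp away. In the RefSeq annotation of a later assembly, ARS-UCD2.0, MIR34A lies within the span of the gene GPR157, a G protein-coupled receptor, MIR34B and MIR34C within the spans of both BTG4 and HOATZ, and MIR449A within CDC20B, and which exons or introns hold them was not analysed here. All 4 mature forms span 22 nucleotides. Reads of different members are set side by side with no correction for length, although the ligation of adapters can favour some sequences.

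The plasma libraries held 1453384 to 4296460 miRNA reads and the blood cell libraries 11169204 to 14471979. In RPMM, 3 reads were worth 0.696 to 2.07 in a plasma library and 0.207 to 0.268 in a blood cell library, which is taken as the floor, and all intervals on reads cover counting error only, since PCR copies are not independent molecules. The red blood cell miRNAs miR-451, miR-486 and miR-144 together took 8.92% to 18.0% of the RPMM in plasma, against 48.8% to 56.1% in blood cells, and the leukocyte miRNAs miR-142-5p, miR-142-3p, miR-150, miR-155 and miR-223 took 3.19% to 6.82% in plasma, against 2.51% to 3.10% in blood cells, so none of these markers was absent from either fraction. The scaling between libraries mattered for the fold changes. With TMM scaling, which assumes that most miRNAs do not differ, the 209 miRNAs tested had a median log2 fold change, plasma over blood cells, of 0.08, and with library totals alone it was 1.76, a shift of 1.67. Of the 5 leukocyte miRNAs, 0 were higher in plasma and 2 lower with TMM, at an adjusted p under 0.05 in edgeR's test. With library totals, 4 were higher and 0 lower. Of all 209, 45.5% were higher and 39.7% lower with TMM, and 67% and 24.9% with library totals. The leukocyte sum was mostly miR-142-5p, at 39727 RPMM in plasma and 20925 in blood cells on average, while miR-142-3p was at 1564 and 2438.

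The members differed in how they were shared between the fractions. miR-34a was the main member in plasma, where it was 18.2-fold higher than in blood cells with TMM scaling, while miR-34c was the main member in blood cells. miR-34c and miR-34b were lower in plasma with TMM scaling and were not called with library totals, and miR-449a was close to the limit of detection in both fractions. In the bulk blood cell fraction, fewer cells of a type and less RNA per cell cannot be told apart. Plasma was cleared of cells by centrifugation and filtration, so its values are not levels per cell.

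**Figure D1:**
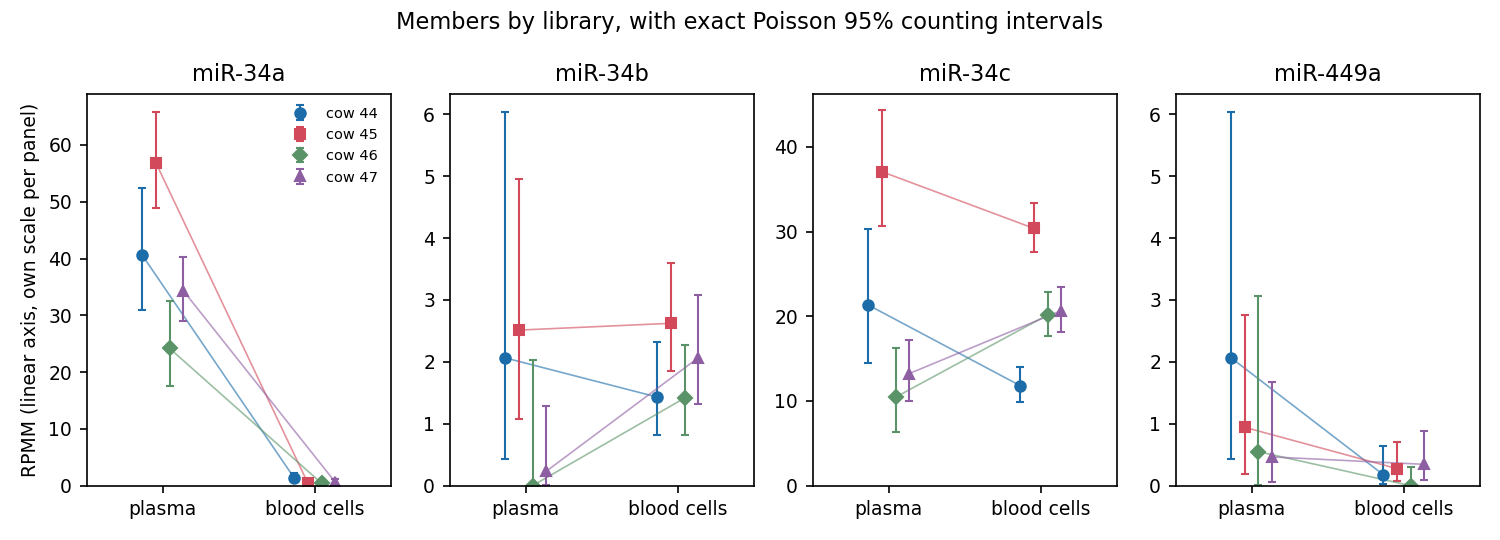
RPMM of each member in the 4 plasma (left) and 4 blood cell (right) libraries, with lines joining the libraries of a cow, bars giving the exact Poisson 95% interval of the reads, and a linear axis of its own in each panel. miR-34a lies between 24.2 and 56.9 RPMM in plasma and at no more than 1.34 in blood cells, whereas the ranges of miR-34c in the fractions overlap.

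bta-miR-34a, the member studied most as a p53 target, had 40.6 (cow 44), 56.9 (cow 45), 24.2 (cow 46) and 34.4 RPMM (cow 47) in plasma, against 1.34, 0.414, 0.416 and 0.603 RPMM in the blood cells of the same cows. The fractions did not overlap, and the lowest plasma library lay far above the highest blood cell library. These levels rest on 59, 181, 44 and 148 reads in plasma, against 15, 6, 5 and 7 reads in blood cells, although the blood cell libraries were the deeper ones. The level averaged 39.0 ± 13.7 RPMM in the plasma libraries and 0.694 ± 0.441 in the blood cell libraries (SD, n = 4 each).

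Within a cow, the plasma level of miR-34a was 30.3 (cow 44), 137 (cow 45), 58.1 (cow 46) and 57.0 (cow 47) times the blood cell level in RPMM. Over the pooled reads, 432 in plasma and 33 in blood cells, the ratio of RPMM was 59.9 (95% exact binomial interval 42.0 to 88.2). The log2 fold change with TMM was 4.19 (standard error, SE, 0.41, edgeR quasi-likelihood test blocked by cow, adjusted p = 9.64e-05, higher in 4 of 4 cows). With library totals it was 5.84 (SE 0.40), so the direction did not depend on this choice.

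A call by itself says little about miR-34a, since 45.5% of the 209 tested miRNAs were called higher in plasma and 39.7% lower, at an adjusted p under 0.05. Its log2 fold change ranked 40th of the 209. The filter asked for 25 RPMM or more in 3 or more libraries of plasma or of blood cells, and miR-34a passed through plasma alone, in 3 of 4 libraries, with cow 46 just below the limit. Passing in this way favours a level that is higher in plasma. miR-34a was the only member of the 4 that passed, and when all 704 names were tested its log2 fold change was 4.26 (SE 0.39).

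The blood cell library of cow 44 held the most miR-34a, 15 reads against 5 to 7 in the others. This library also held the highest blood cell level of 46 of the 95 miRNAs called higher in plasma (48.4%), against 8 to 22 for the other blood cell libraries. Among them was the smooth muscle miRNA miR-143, at 387 RPMM against 49.5 to 72.0. The part of this in the miR-34a value was not tested, and without cow 44 the log2 fold change of miR-34a was 4.63. Highest blood cell levels were not counted for the miRNAs that were not called higher in plasma. Whether the share of 48.4% is particular to those called higher was therefore not tested.

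bta-miR-34c, in the mouse a miRNA of testis and ciliated epithelia, was about as abundant in plasma as in blood cells when given as RPMM. It had 21.3 (cow 44), 37.1 (cow 45), 10.4 (cow 46) and 13.2 RPMM (cow 47) in plasma, against 11.8, 30.4, 20.2 and 20.7 RPMM in blood cells. The ranges overlapped, with the plasma level higher in cows 44 and 45 and lower in cows 46 and 47. The averages were 20.5 ± 11.96 RPMM over the plasma libraries and 20.8 ± 7.59 over the blood cell libraries (SD, n = 4 each), from 225 reads in plasma and 1054 in blood cells. The pooled ratio of RPMM was 0.977 (95% exact binomial interval 0.843 to 1.13).

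Because miR-34c did not reach 25 RPMM in 3 libraries of either fraction, it was tested only in the fit of all 704 names, of which 25.3% were called higher in plasma and 21.7% lower. With TMM its log2 fold change was -1.68 (SE 0.29, edgeR quasi-likelihood test, adjusted p = 0.000169), and the scaled level was lower in plasma in 4 of 4 cows. On the TMM-scaled RPMM scale, miR-34c lay at 5.30 to 20.5 in plasma, against 23.7 to 49.8 in blood cells, with no overlap. With library totals the log2 fold change of miR-34c was -0.10 (SE 0.30, same test, adjusted p = 0.777), and of all names 42.2% were then called higher in plasma and 10.7% lower. Whether miR-34c differed between the fractions thus depends on the scaling, which these reads do not settle. The red blood cell miRNAs took 8.92% and 14.6% of the plasma RPMM in cows 44 and 45, the cows with more miR-34c in plasma, and 16.1% and 18.0% in cows 46 and 47. The leukocyte miRNAs took 6.82% and 5.87% in cows 44 and 45, and 5.39% and 3.19% in cows 46 and 47. The part of either list in the miR-34c levels was not tested.

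The libraries of different cows differed in miR-34c by more than counting error, and with 1 library per cow and fraction the error of library preparation is not known. In blood cells, cow 45 had 30.4 RPMM (95% exact Poisson interval 27.6 to 33.4) and cow 44 had 11.8 (9.88 to 14.0), with cows 46 and 47 between them. Cow 45 was highest in plasma too, at 37.1 RPMM (30.7 to 44.4), but the lowest plasma level was that of cow 46, at 10.4 (6.29 to 16.3). Highest and lowest differed 3.55-fold in plasma and 2.57-fold in blood cells. For miR-34a the spread was 2.35-fold in plasma, again with cow 45 highest and cow 46 lowest.

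bta-miR-34b, which is made from the same primary transcript as miR-34c in the mouse, was a minor member. It had 3 (cow 44), 8 (cow 45), 0 (cow 46) and 1 read (cow 47) in plasma, against 16, 38, 17 and 24 reads in blood cells. In plasma only the library of cow 45 exceeded 3 reads, while all blood cell libraries did. As RPMM these are 2.07, 2.51, 0 and 0.232 in plasma, against 1.43, 2.62, 1.42 and 2.07 in blood cells, so the ranges overlapped. The 0 in the plasma of cow 46 allows a level of up to 1.65 RPMM, which is above the 1.42 RPMM in the blood cells of that cow, so a difference was not detectable there.

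With TMM, miR-34b was at -2.40 on the log2 scale (SE 0.58, edgeR quasi-likelihood test over all names, adjusted p = 0.00288, scaled level lower in 4 of 4 cows), and without cow 45 it was -3.04. In RPMM it was higher in plasma in 1 cow and lower in 3, and only the plasma of cow 45 exceeded 3 reads. With library totals the log2 fold change of miR-34b was -0.88 (SE 0.64, same test, adjusted p = 0.285). The pooled ratio of RPMM was 0.578 (95% exact binomial interval 0.289 to 1.06), and it was 0.322 without cow 45 and 0.904 without cow 47. The plot of fold changes under both scalings shows that a call of lower in plasma was made for miR-34b and miR-34c with TMM and not with library totals.

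**Figure D2:**
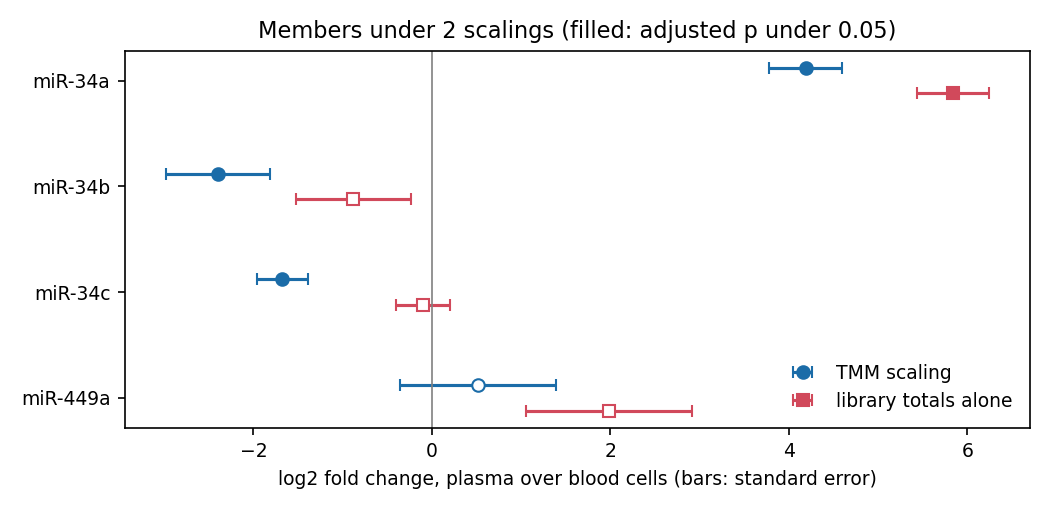
Log2 fold change, plasma over blood cells, for each member with TMM scaling (circles) and with library totals alone (squares), bars giving the standard error and filled symbols an adjusted p under 0.05 from edgeR's test. miR-34a is far to the right under both, whereas miR-34b and miR-34c are called at -2.40 and -1.68 with TMM and not called with library totals.

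miR-34b and miR-34c have near-identical mature sequences, and 1 mismatch was allowed when reads were assigned, so some reads could stand under the other name. Of the reads of both, miR-34b took 5.06% in plasma (95% Wilson interval 2.92% to 8.64%, 12 of 237 reads) and 8.27% in blood cells (6.81% to 10.0%, 95 of 1149 reads). The share in single blood cell libraries was 6.56% to 10.8%, and the intervals of all 4 overlapped. Whether miR-34c reads add to the count of miR-34b was not tested, and the sum of both names had a log2 fold change of -1.74 with TMM (SE 0.30).

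bta-miR-449a, the member of the CDC20B locus, had 3 (cow 44), 3 (cow 45), 1 (cow 46) and 2 reads (cow 47) in plasma, against 2, 4, 0 and 4 reads in blood cells. No plasma library exceeded 3 reads and no blood cell library exceeded 4, so its level was near the floor throughout. The pooled 9 and 10 reads gave a ratio of RPMM of 4.12 (95% exact binomial interval 1.48 to 11.3), and 6.81 without cow 47. Its log2 fold change with TMM was 0.52 (SE 0.87, edgeR quasi-likelihood test over all names, adjusted p = 0.615) and with library totals 1.98 (SE 0.93, adjusted p = 0.0925), and it was called with neither. The neighbouring miR-449b had 1 read in the plasma of cow 47, 3 in that of cow 45 and 0 in all other libraries.

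The make-up of the family within a library is free of any scaling between libraries, and it set the fractions apart. miR-34a took 61.5% (95% Wilson interval 51.5% to 70.6%), 58.4% (52.8% to 63.7%), 68.8% (56.6% to 78.8%) and 71.2% (64.7% to 76.9%) of the members' reads in the plasma of cows 44 to 47. In the blood cells of the same cows it took 9.09% (5.59% to 14.5%), 1.23% (0.565% to 2.66%), 1.89% (0.812% to 4.36%) and 2.55% (1.24% to 5.16%). The intervals of the fractions were far apart. miR-34c took 31.9% ± 4.59 of these reads in the plasma libraries and 87.3% ± 5.18 in the blood cell libraries (SD, n = 4 each), and miR-34b took 1.55% ± 1.54 in plasma and 8.16% ± 1.39 in blood cells. miR-449a took at most 3.12% in any library. The shares of a library are parts of 1 total, so a higher share of miR-34a lowers those of the others. In RPMM, miR-34c averaged 20.5 in plasma and 20.8 in blood cells.

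**Figure D3:**
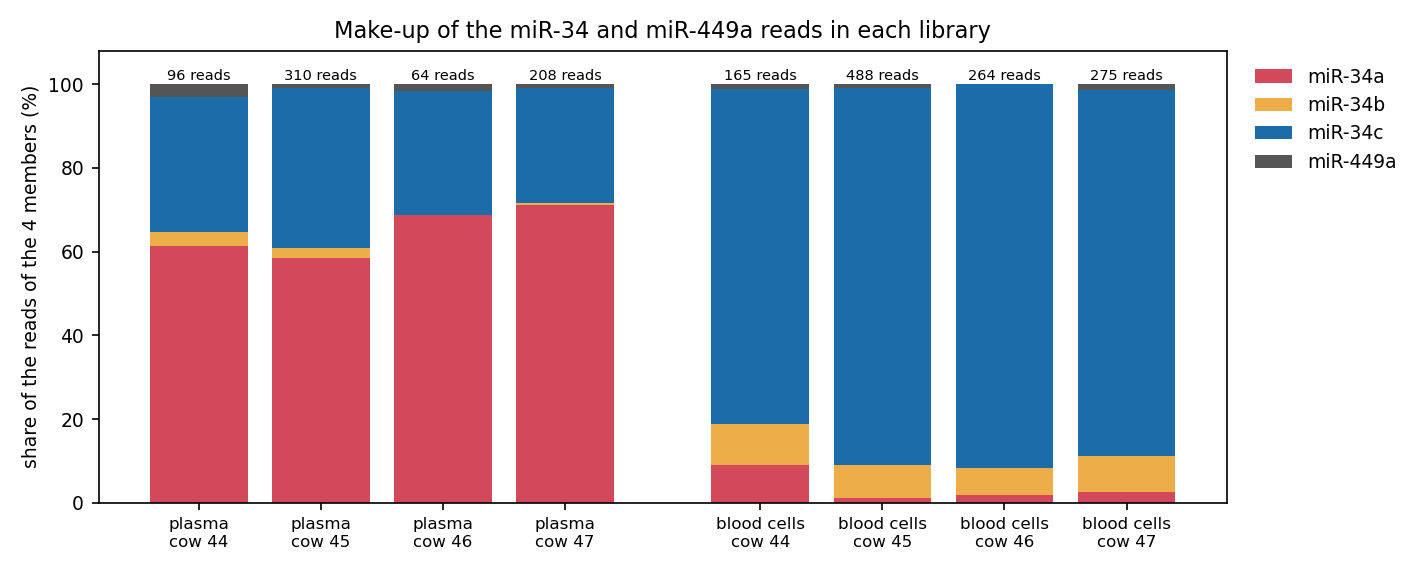
Share of each member, in percent, among the reads of the 4 members in each plasma (left) and blood cell (right) library, with the number of reads above each bar. miR-34a makes up 58.4% to 71.2% of the reads in plasma, and miR-34c 80.0% to 91.7% in blood cells.

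For each read of miR-34c, the plasma libraries of cows 44 to 47 held 1.90, 1.53, 2.32 and 2.60 reads of miR-34a, against 0.114, 0.0136, 0.0207 and 0.0292 in their blood cells. The log2 of this ratio averaged 1.03 ± 0.33 over the plasma libraries and -5.01 ± 1.32 over the blood cell libraries (SD, n = 4 each), and plasma minus blood cells was 4.07 (cow 44), 6.81 (cow 45), 6.81 (cow 46) and 6.48 (cow 47). The difference averaged 6.04 ± 1.33 (SD, n = 4), or 6.70 ± 0.19 without cow 44 (SD, n = 3), so it exceeded the spread between cows.

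The order of the members by level differed between the fractions. In plasma the order was miR-34a, miR-34c, miR-34b and miR-449a. The ranges of the first pair overlapped across cows, at 24.2 to 56.9 and 10.4 to 37.1 RPMM, although miR-34a was higher in each of the 4 libraries, and miR-34b and miR-449a, at 1.20 ± 1.27 and 1.005 ± 0.737 RPMM (SD, n = 4), did not differ beyond their spread. In blood cells the order was miR-34c, miR-34b, miR-34a and miR-449a, at 20.8, 1.88, 0.694 and 0.1999 RPMM on average, and the ranges of neighbours did not overlap, although the lowest pair rests on 33 and 10 reads. By mean RPMM, miR-34a was 191st of the 704 names in plasma and 307th in blood cells, while miR-34c was 215th in plasma and 150th in blood cells. The members together held 61.7 ± 26.9 RPMM in a plasma library and 23.5 ± 7.80 in a blood cell library (SD, n = 4 each), a very small part of the miRNA reads of either fraction. With TMM scaling the direction of this sum turned, at 35.6 ± 14.8 in a plasma library and 40.2 ± 10.7 in a blood cell library (SD, n = 4 each), and the ranges overlapped.

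The miRNAs whose profile across the 8 libraries was most like that of miR-34a were miR-296-3p, miR-1388-5p, miR-10a, miR-1388-3p and miR-136. Likeness was the Euclidean distance between profiles of log2(RPMM + 1), each centred on its own mean, and the distances of these 5 were 1.03 to 1.21, against a median of 4.79 for the 208 other tested miRNAs. The added 1 makes the step between fractions smaller for miR-34a, at 0.694 RPMM in blood cells, than for abundant miRNAs, and the TMM log2 fold changes of the 5 were 3.00, 2.36, 2.69, 3.17 and 5.08, against 4.19 for miR-34a. miR-10a, which is encoded in a HOX gene cluster, averaged 5448 ± 958 RPMM in plasma, against 271 ± 80.6 in blood cells (SD, n = 4 each). miR-136, of the imprinted DLK1-DIO3 region, was the nearest of the 5 to miR-34a in level, with 54.6 ± 20.4 RPMM in plasma, against 0.488 ± 0.164 in blood cells (SD, n = 4 each). The points share their libraries and their depth, and the step between fractions makes up most of each profile.

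Other miRNAs linked to p53 did not move in a common direction. Of 14, which in human or mouse cells are induced by p53, are processed faster with it or target its messenger RNA, 12 passed the filter, and 7 of these were called higher in plasma and 5 lower with TMM, against 45.5% and 39.7% of the 209 miRNAs. With library totals 7 were called higher and 4 lower, against 67% of the 209 miRNAs called higher and 24.9% lower under that scaling, and miR-125b, which targets the p53 messenger RNA in human cells, was called no longer, its log2 fold change being -1.10 with TMM and 0.58 with library totals. Their median log2 fold change was 1.14 with TMM, beside 0.08 over all 209 miRNAs, and 3 of the 12 passed the filter through plasma alone. When all names were tested, 9 of the 14 were called higher and 5 lower, against 25.3% and 21.7% of the 704. These shares are not like for like, since 12 of the 14 passed the filter. Of all 704 names 331 were called, against 178 of the 209 that passed.

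Of the 7 that are induced by p53, as the miR-34 genes are, 6 passed the filter, 3 of them through plasma alone, with 5 called higher in plasma and 1 lower, against 45.5% and 39.7% of the 209. With library totals 5 were again called higher and 1 lower, against 67% and 24.9% of the 209. miR-215, known from intestine, averaged 28947 ± 18053 RPMM in plasma, against 16.9 ± 16.3 in blood cells (SD, n = 4 each; 8.87 ± 3.39 in blood cells without cow 44, n = 3), a log2 fold change of 9.30 (SE 0.33). miR-192, of the same family in liver and intestine, had a log2 fold change of 4.04 (SE 0.23), close to the 4.19 of miR-34a. miR-107 was the one lower in plasma, at -7.38 (SE 0.30). It had 2 to 11 reads in a plasma library and 1204 to 1760 in a blood cell library. It passed the filter through blood cells alone, which favours a level that is lower in plasma. Its value is also uncertain because its sequence is near-identical to that of miR-103. In the processing group, miR-143 and miR-145 were called higher in plasma and miR-16a and miR-16b lower, and in the targeting group miR-30d was called higher and miR-25 and miR-125b lower, while miR-504, tested only without the filter, was called higher at 4.06 (SE 0.49).

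**Figure D4:**
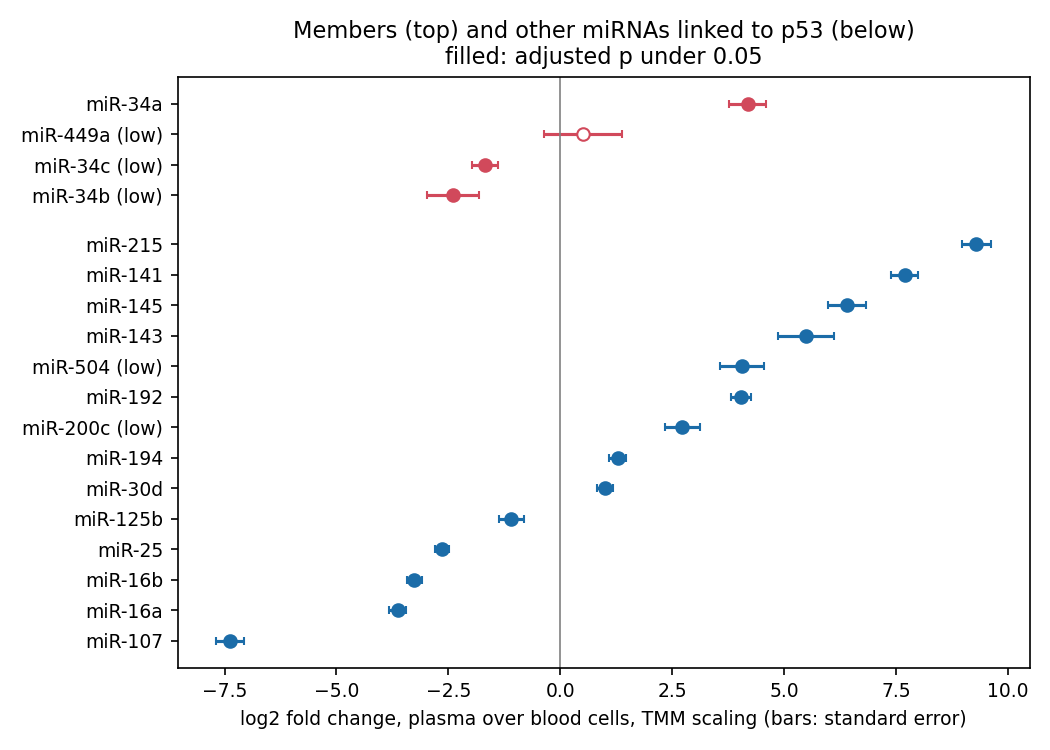
Log2 fold change, plasma over blood cells, with TMM scaling, with bars for the standard error, for the 4 members (top, red) and 14 other miRNAs linked to p53 (below, blue), filled where the adjusted p from edgeR's test was under 0.05 and marked low where the miRNA was tested only without the filter. Both sets spread to both sides of 0, the p53-linked set from 9.30 for miR-215 to -7.38 for miR-107.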

How the data were processed

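The authors made TruSeq small RNA libraries from 5 μL of RNA each, sequenced them as 36-base single reads, dropped reads without adapter, with undetermined bases or under 15 nucleotides, and ran sRNAbench with Bowtie 0.12.9 on the others, against bosTau4 and miRBase 21, allowing 1 mismatch. The deposited counts are raw reads per mature miRNA name. The deposited normalised values, treated here as a score, are RPMM, in which human homologues have a denominator of their own. RPMM were rebuilt from the counts with the bovine denominator, which gave the deposited values of all bovine names.

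Counts of plasma and blood cells were compared with edgeR 4.0.16 (R 4.3.3), quasi-likelihood test, with TMM scaling, cows as blocks and p-values adjusted by Benjamini-Hochberg (threshold 0.05). The study's methods name the paired mode of edgeR and the filter of 25 RPMM. Standard errors were obtained from the F statistic, as |log2 fold change| over its square root. Members below the filter were tested with all 704 names. The pairing comes from the animals; deviations from the fraction means correlated at 0.051 to 0.234 within cows and -0.174 to 0.106 between cows. Fits were tested on simulated counts in which a minority of names changed, as many up as down. That setting cannot show whether TMM holds where most names differ. Alternatives were no block, RLE factors, library totals, DESeq2 1.42.0, the likelihood ratio test, other filters, bovine names only, miR-34b and miR-34c summed and leaving out each cow (keeping the 209 names, or, in the fit of all names, those that still had a read), and TMM factors from the filtered names were added after seeing the data.

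The miRNAs named are the 4 members, other names of their families, the 5 profiles nearest to miR-34a, and up to 4 per group of the p53-linked list. Members, lists and this rule were chosen with earlier results of these data known. Blood cell markers, and miR-103 and miR-143 where a value turns on them, were named as well.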

Additional observations from a re-analysis of the deposited data

Results flagged for a closer look

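miR-449c, which lies in the CDC20B locus with miR-449a and is not among the 4 members, had 8 reads in the plasma library of cow 45 and 0 in each of the other 7 libraries. It is listed because it exceeds 3 reads in a plasma library while the blood cell libraries hold none. The 8 reads correspond to 2.51 RPMM (95% exact Poisson interval 1.09 to 4.95). By the same kind of interval, the 0 in the plasma of cow 44, the shallowest library, allows up to 2.54 RPMM. No member had a library that stood apart from its fraction by Dixon's test.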

How the results depend on the processing

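The fold change of miR-34a was called higher in plasma under all 8 alternatives run, at log2 values of 4.16 to 5.84, and without each cow at 3.77 to 4.63. It was not tested under the filter of 25 RPMM in all 4 libraries, since the plasma of cow 46 lies below it. With library totals alone, miR-34b at -0.88 and miR-34c at -0.10 were no longer called. Under 6 other alternatives both were called lower in plasma, as was their sum at -1.74, and without each cow they were at -3.04 to -2.11 for miR-34b and -1.86 to -1.38 for miR-34c. miR-449a was called under none of the alternatives, at 0.42 to 1.98 and, without each cow, 0.14 to 0.91. Without the replicate block the values were 4.17 for miR-34a, -2.25 for miR-34b, -1.58 for miR-34c and 0.55 for miR-449a, and the block changed no call of a member. The number of miRNAs called was 178 of 209 (95 higher in plasma and 83 lower), 192 with library totals (140 and 52), 174 without the block, 331 of 704 without the filter, where more names were tested, and 163 to 175 without each cow. Depth limits miR-34b and miR-449a in plasma, where 3 reads are worth up to 2.07 RPMM. The spiked-in cel-miR-39-3p was not analysed here and could not inform the choice of scaling.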
